A study of Rattus norvegicus with 21 samples.

Results

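RNA of repeated elements that was recovered with the J2 antibody was compared between rat astrocytes given TDP-43 siRNA and control astrocytes. The comparison used 6 of the 21 libraries of the study, all 3 J2 libraries of TDP-43 siRNA cells and all 3 J2 libraries of control cells, chosen by their labels. Counts were available for 1275 repeat names, and all of them were counted as members. The astrocytes were primary cells of neonatal Sprague-Dawley rat pups at passages 2 to 3. The TDP-43 siRNA cells were transfected by lipofection, which delivers nucleic acid in lipid particles. For the control cells the labels do not state whether a scrambled siRNA was given, and neither the siRNA sequence nor the time after transfection is stated. The other libraries were 6 inputs of the precipitation, 3 from TDP-43 siRNA cells and 3 from control cells, and 9 poly(A) libraries. The labels do not say whether the 3 libraries of a group came from separate cultures, so p-values measure only how far these libraries differed, which can be technical variation. In bulk RNA, fewer cells of a type and less RNA per cell cannot be told apart.

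J2 is a monoclonal antibody that binds long double-stranded RNA with little regard to its sequence, and so recovers paired RNA from a lysate. Double-stranded RNA in cells often comes from repeats, because copies that lie in opposite directions in a transcript can fold on each other and because repeats can be read from both strands. TDP-43, the product of Tardbp, is an RNA-binding protein of the nucleus that is lost from it in affected cells of amyotrophic lateral sclerosis and frontotemporal dementia, and it is known to bind repeat-derived RNA.

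The repeats fall into families with different histories. SINEs are short elements copied by the enzymes of LINEs; the rodent B1 family derives from 7SL RNA, and the B2 and ID families from tRNA. LINE-1 elements encode their own copying machinery. LTR elements are the remains of endogenous retroviruses, of which the MaLR elements (MT, ORR1, MLT1) lack most genes. Many DNA transposons, and the MIR, L2 and UCON-type elements, are fossils shared by many mammals. Satellites are tandem arrays, and tRNA, rRNA, 7SL, 7SK and U RNAs are structural RNAs listed among repeats because the genome holds many copies of them. The 1275 names were put into 15 such groups by name alone.

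The J2 libraries held 1.85, 2.03 and 3.37 M repeat counts (M, 1000000) in TDP-43 siRNA cells and 2.02, 2.08 and 2.46 M in control cells, against 9.47 to 11.7 M in the inputs. In J2 libraries 243, 249 and 134 names had no count in TDP-43 siRNA cells, and 152, 219 and 243 had none in control cells. In all, 896 names (70.3%) were counted in each of the 6 J2 libraries, and 75 (5.88%) were counted in none, 50 of which had a count in all 6 inputs. Tardbp cannot be read from these libraries, whose table lists repeats only. In the poly(A) libraries it stood at 29.5, 20.7 and 24 counts per 1000000 (CPM) in TDP-43 siRNA cells, against 178, 157 and 171 CPM with scrambled siRNA. All 6 astrocyte markers looked up were found in the same poly(A) libraries. Gfap (2050 to 2960 CPM with TDP-43 siRNA and 1990 to 2640 CPM with scrambled siRNA) and Aldh1l1 overlapped between these groups. Slc1a2 (32.6 to 42.2 CPM with TDP-43 siRNA and 3.76 to 11 CPM with scrambled siRNA) and Sox9 (108 to 137 CPM with TDP-43 siRNA and 67.9 to 103 CPM with scrambled siRNA) were higher with TDP-43 siRNA in every library. Slc1a3 stood at 514 to 633 CPM with TDP-43 siRNA and 772 to 957 CPM with scrambled siRNA, and Aqp4 at 419 to 459 CPM with TDP-43 siRNA and 799 to 918 CPM with scrambled siRNA. Among markers of other cells, microglial Csf1r stood at 43.0 to 43.7 CPM with TDP-43 siRNA and 39.3 to 46.2 CPM with scrambled siRNA, and neuronal Rbfox3 at 0 to 0.296 CPM with TDP-43 siRNA and 0 to 0.26 CPM with scrambled siRNA. Markers cannot be read in the J2 libraries themselves.

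No repeat element in J2-bound RNA passed the test of TDP-43 siRNA against control. Of the 1275 names, 1006 (78.9%) had enough counts to be tested, and 0 of these (0%) had an adjusted p under 0.05 in edgeR's quasi-likelihood test, with a smallest adjusted p of 0.991, which is therefore the adjusted p in edgeR of each element named below as having a small p. At an unadjusted p under 0.05 there were 35 elements (3.48%), 14 higher (1.39%) and 21 lower (2.09%) in TDP-43 siRNA cells. DESeq2 also called 0 of 1004 elements (0%), with 52 (5.18%) at an unadjusted p under 0.05. The 3 TDP-43 siRNA libraries lay wholly above or below the 3 control libraries for 94 elements (9.34%), 41 higher (4.08%) and 53 lower (5.27%). The median log2 fold change over the 1006 elements was -0.01, the middle 50% lay between -0.29 and 0.28, and 497 elements had a positive value against 509 with a negative one.

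A p that misses the threshold does not show that the groups were alike, and how small a difference these libraries could show depended on the abundance of the element. For 359 of the 1006 elements (35.7%) the 95% interval of the change lay within 2-fold in either direction, and for 196 it lay within 1.5-fold. Of the 158 elements above 1000 CPM, the intervals of 136 of 138 between 1000 and 10000 CPM and of 19 of 20 from 10000 CPM upward lay within 2-fold. The exception among the 20 was large-subunit rRNA. Between 100 and 1000 CPM the interval lay within 2-fold for 203 of 344 elements, and between 10 and 100 CPM for 1 of 433. The median standard error (SE) was 0.06 on the log2 scale from 10000 CPM upward, 0.12 from 1000 to 10000 CPM, 0.30 from 100 to 1000 CPM and 0.85 from 10 to 100 CPM. Under 100 CPM nearly every interval thus reached past a 2-fold change.

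**Figure D1:**
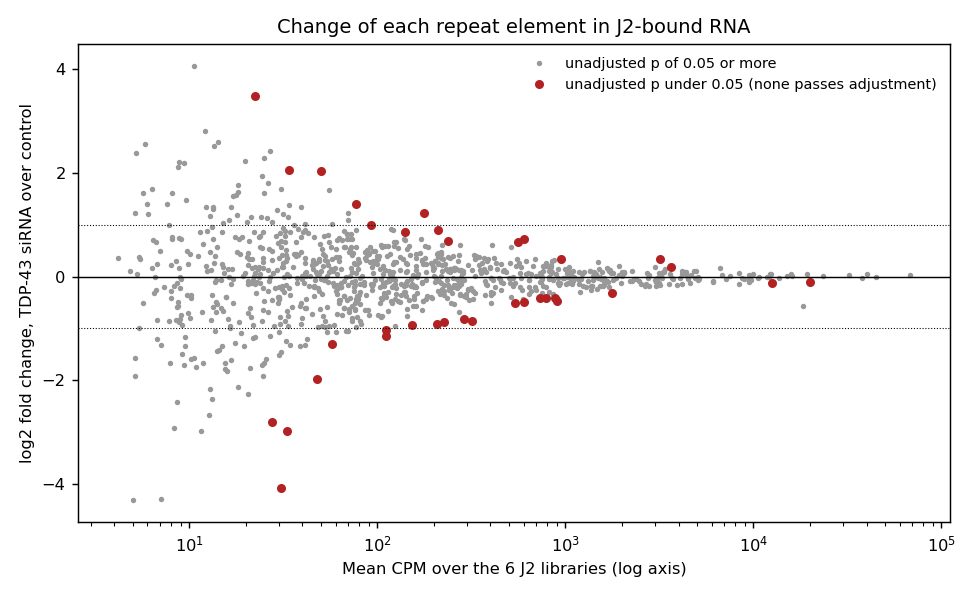
Log2 fold change of each of the 1006 tested elements in J2-bound RNA, TDP-43 siRNA over control (vertical axis), against its mean CPM over the 6 J2 libraries (horizontal log axis); each point is an element. The points form a funnel: from 1000 to 10000 CPM no element lies further than 0.34 from 0, while elements under 100 CPM reach beyond 4 in both directions.

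The funnel of changes against abundance follows the spread between libraries of the same group. For elements with 30 to 100 counts, the median coefficient of variation between the 3 J2 libraries was 69.1% in TDP-43 siRNA cells and 62.1% in control cells, against 14.7% in TDP-43 siRNA inputs and 16.4% in control inputs for elements in the same range of counts. For elements with 300 to 1000 counts it was 23.6% in TDP-43 siRNA cells and 21.6% in control cells in J2-bound RNA, and 6.7% in TDP-43 siRNA inputs and 10.7% in control inputs. From 10000 counts upward the J2 values came down to 5.11% in TDP-43 siRNA cells and 4.95% in control cells. Counting error alone would give 13.5% in J2 libraries at 30 to 100 counts, so the J2 spread of rare elements lay far above counting error and above inputs of like count, in both groups. The biological coefficient of variation that edgeR estimated over all elements was 0.593 for J2-bound RNA and 0.0797 for input RNA. The correlation of log2 CPM across elements was 0.871 to 0.921 between libraries of the same group (6 pairs) and 0.853 to 0.951 between libraries of different groups (9 pairs), with medians of 0.902 within and 0.905 between groups.

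**Figure D2:**
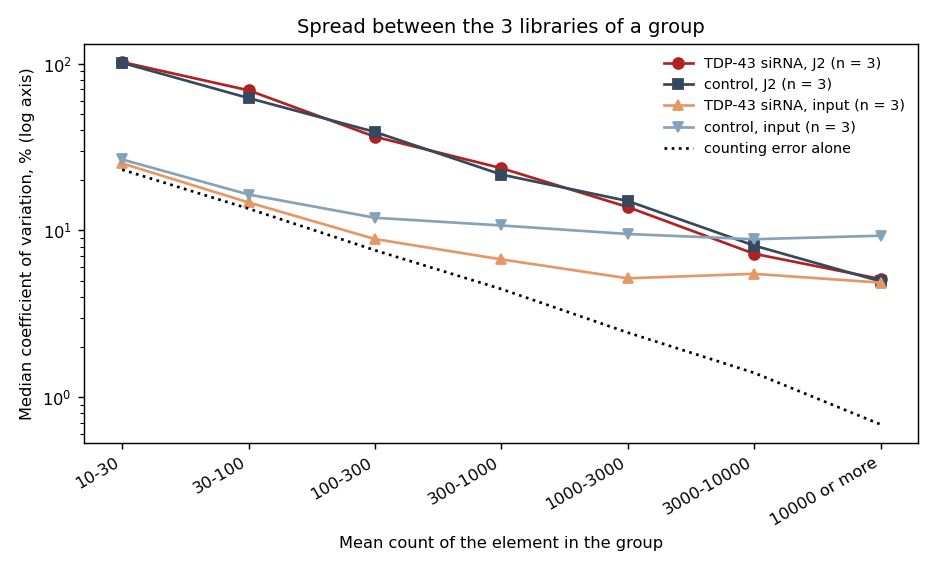
Median coefficient of variation between the 3 libraries of a group in percent (vertical log axis) for elements binned by their mean count in that group (horizontal axis), for J2 and input libraries of TDP-43 siRNA and control cells; the dotted line is the spread that counting error alone would give. For elements of 10 to 30 counts the J2 lines lie at 102% (TDP-43 siRNA) and 101% (control), where the input lines lie at 25.2% (TDP-43 siRNA) and 26.6% (control), and come down to about the TDP-43 siRNA input line from 10000 counts upward.

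Transposon-derived elements made up most repeat counts in every J2 library, with 94.7, 94.9 and 97.9% in TDP-43 siRNA cells and 95.6, 93.3 and 97.3% in control cells. The mean was 95.8% ± 1.78 in TDP-43 siRNA cells and 95.4% ± 1.99 in control cells (SD, n = 3 each), against 54.5% ± 1.84 in TDP-43 siRNA inputs and 53.4% ± 4.80 in control inputs. The share of structural RNA was 3.76, 3.50 and 0.58% in TDP-43 siRNA J2 libraries and 3.02, 5.23 and 1.42% in control J2 libraries, while it averaged 43.9% in TDP-43 siRNA inputs and 45.1% in control inputs. The groups overlapped for both quantities. Shares are of each library's own repeat counts, so they say nothing of the total amount of RNA that J2 recovered, which these files do not give.

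B1 SINEs held the largest share of J2-bound counts, with 16.1, 15.8 and 16% in TDP-43 siRNA cells and 16, 15.5 and 15.4% in control cells. B2 SINEs followed with 13.5, 14.1 and 14.5% in TDP-43 siRNA cells and 13.6, 13.4 and 13.8% in control cells. The ranges of the groups overlapped for both families, while B1 SINEs were higher with TDP-43 siRNA in each pair of libraries with the same replicate number. Rodent LINE-1 elements held 9.90, 10.5 and 11.1% in TDP-43 siRNA cells and 9.92, 10.4 and 11.9% in control cells. LTRs of endogenous retroviruses other than MaLRs held 9.19, 8.57 and 9.11% in TDP-43 siRNA cells and 9.15, 8.34 and 8.82% in control cells, with overlapping ranges and a higher share with TDP-43 siRNA in each same-numbered pair. In all, 5 groups differed one way in all 3 same-numbered pairs: B1 SINEs, retroviral LTRs and satellites were higher with TDP-43 siRNA, and ancient SINEs and other ancient elements were lower (exact sign-flip p = 0.25 each, the smallest that 3 pairs allow). The labels do not say that the numbers pair the libraries.

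Shares of 2 of the 15 groups did not overlap between TDP-43 siRNA and control cells. Satellites held 1.37, 1.40 and 1.39% of J2-bound counts in TDP-43 siRNA cells and 1.23, 1.28 and 1.14% in control cells, a difference of 0.171 percentage points (two-sided exact permutation p = 0.1, adjusted over the 15 groups 0.75). Ancient SINEs, the MIR elements and their relatives, held 3.86, 3.81 and 3.66% in TDP-43 siRNA cells and 3.95, 3.87 and 3.88% in control cells, a difference of -0.126 percentage points (exact permutation p = 0.1, adjusted 0.75). With 3 libraries against 3 this test cannot give a p below 0.1, so no share could pass. The other 13 groups had exact permutation p-values of 0.2 to 1. When tRNA, structural RNA and satellites were left out of the totals, 0 of the remaining groups were free of overlap, ancient SINEs included.

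**Figure D3:**
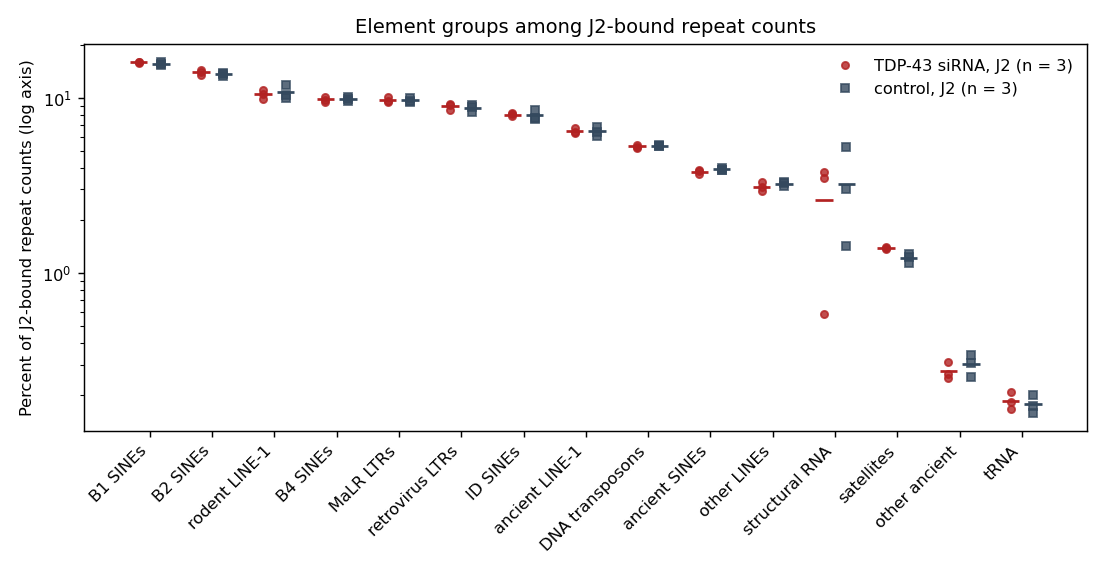
Percent of each J2 library's repeat counts held by each of the 15 element groups (log axis), with TDP-43 siRNA libraries left of control libraries; each point is a library. The points of both conditions overlap in 13 groups, and lie apart for satellites (1.37 to 1.40% with TDP-43 siRNA, 1.14 to 1.28% in control) and ancient SINEs (3.66 to 3.86% with TDP-43 siRNA, 3.87 to 3.95% in control).

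SINEs of the B1, B2, B4 and ID families had narrow intervals. B3, a member of the B2 family and the most abundant name in J2-bound RNA, stood at 66100, 71400 and 69800 CPM in TDP-43 siRNA cells and 67200, 67800 and 68000 CPM in control cells. Its log2 fold change was 0.03 with a 95% interval of -0.04 to 0.10; parentheses after CPM values give these same quantities for other elements, in some cases with the SE after ±. The control values lay inside the range of the TDP-43 siRNA values. ID_B1, a composite of ID and B1 sequence, stood at 47300, 45100 and 41800 CPM in TDP-43 siRNA cells and 49700, 43300 and 42100 CPM in control cells, a log2 fold change of -0.01 (-0.14 to 0.12). All 35 elements of the B1, B2, B4 and ID groups had intervals within 2-fold.

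BC1_Rn, the neuronal cytoplasmic RNA from which ID elements are thought to derive, stood at 3880, 3750 and 3300 CPM in TDP-43 siRNA cells and 4380, 3520 and 3190 CPM in control cells (log2 fold change -0.02, -0.28 to 0.24). The B2_Rn consensus of rat stood at 1670, 1930 and 1680 CPM in TDP-43 siRNA cells and 1730, 1600 and 1440 CPM in control cells (0.15, -0.11 to 0.41). In both, the groups overlapped. Counts of related SINEs are uncertain, since near-identical copies share reads and no source used here states how such reads were counted.

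B4 and MIRb were the SINEs with an unadjusted p under 0.05. B4 stood at 19700, 19400 and 18900 CPM in TDP-43 siRNA cells and 20700, 20400 and 21500 CPM in control cells, with a log2 fold change of -0.11 ± 0.05 (SE). MIRb stood at 12200, 12000 and 11600 CPM in TDP-43 siRNA cells and 12900, 13200 and 13000 CPM in control cells, with a log2 fold change of -0.13 ± 0.05 (SE). In both, every TDP-43 siRNA library lay below every control library. The input log2 fold changes were -0.05 for B4 (adjusted p = 0.407) and -0.11 for MIRb (adjusted p = 0.0872). Its near relative MIR overlapped between the groups, at 11900, 12000 and 11500 CPM in TDP-43 siRNA cells and 12000, 11600 and 12100 CPM in control cells.

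Rodent LINE-1 elements, which include families still able to copy themselves in rats, were also well measured. All 33 names in the table were tested, 32 of them had an interval within 2-fold, and the median log2 fold change was -0.04 with 11 positive and 22 negative values. TDP-43 siRNA and control libraries lay apart for 1 higher name (3.03%) and 5 lower names (15.2%), against 4.08% and 5.27% over all elements. L1_Rn stood at 3150, 3170 and 3370 CPM in TDP-43 siRNA cells and 3060, 3280 and 3540 CPM in control cells (-0.03, -0.23 to 0.17). Lx8, an older rodent family and the most abundant of the group, stood at 12600, 13900 and 14200 CPM in TDP-43 siRNA cells and 13200, 14000 and 14100 CPM in control cells (-0.02, -0.16 to 0.11). The values of the groups overlapped for both.

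Lx3C was the rodent LINE-1 name with the smallest p. It stood at 703, 899 and 668 CPM in TDP-43 siRNA cells and 1050, 901 and 1200 CPM in control cells (log2 fold change -0.47 ± 0.17, -0.85 to -0.10), so that the groups did not overlap although the nearest libraries of both lay within 2 CPM of each other. The 3 Lx3 names all had negative values, between -0.47 and -0.15. Among 85 tested older LINE-1 elements the median was -0.01, with 42 positive and 43 negative values. L1MD1 stood at 795, 774 and 678 CPM in TDP-43 siRNA cells and 1100, 1060 and 857 CPM in control cells (-0.42 ± 0.16, -0.77 to -0.08), and the 6 L1MD names ran from -0.65 to 0.10.

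LTRs of endogenous retroviruses formed the largest group, with 484 names, 410 of them tested. Their median log2 fold change was 0.04, with 217 positive and 193 negative values, and 108 (26.3%) had an interval within 2-fold. At an unadjusted p under 0.05 there were 9 higher (2.2%) and 5 lower (1.22%) in TDP-43 siRNA cells, against 1.39% and 2.09% over all 1006 elements. The groups did not overlap for 19 higher (4.63%) and 18 lower names (4.39%), near the 4.08% and 5.27% over all elements.

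RLTR40, a rodent retroviral LTR, had the smallest p of all elements. It stood at 832, 759 and 655 CPM in TDP-43 siRNA cells and 422, 473 and 461 CPM in control cells. Every TDP-43 siRNA library lay above every control library. The log2 fold change was 0.73 ± 0.18 (SE), with a 95% interval of 0.35 to 1.11 and an adjusted p of 0.991 in edgeR and 0.118 in DESeq2. In input RNA RLTR40 was 0.12 higher on the log2 scale (adjusted p = 0.0272). The test that sets the J2 change against the input change gave a difference of 0.64 with an adjusted p of 0.327 in edgeR.

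RLTR31M stood at 55.7, 33.2 and 34.8 CPM in TDP-43 siRNA cells and 8.03, 1.48 and 1.60 CPM in control cells. These were 103, 66 and 122 counts against 16, 3 and 4 counts, and the groups did not overlap. Its log2 fold change was 3.47, with an interval of 0.96 to 6.01, and 4.69 without the first control library, and it was higher by 0.53 in input RNA (adjusted p = 0.00269). The 8 RLTR31 names did not share this value: 4 were positive and 4 negative, between -0.37 and 3.47. When the input libraries were fitted with the J2 libraries and all 12 shared 1 estimate of the spread, RLTR40 (0.76, adjusted p = 0.00461) and RLTR31M (3.51, adjusted p = 0.0493) passed the threshold in J2-bound RNA, and no other element did. That estimate takes in the inputs, whose biological coefficient of variation was 0.0797 against 0.593 for J2-bound RNA, so it can understate the J2 spread. In this fit 207 of 1176 elements had an unadjusted p under 0.05, against 35 of 1006 with the J2 libraries alone.

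MLTR13 stood at 109, 56.8 and 77.7 CPM in TDP-43 siRNA cells and 35.1, 9.86 and 14.4 CPM in control cells (log2 fold change 2.03, 0.58 to 3.49), and it was higher by 0.54 in input RNA (adjusted p = 0.00203). RNLTR4a stood at 154, 124 and 57.1 CPM in TDP-43 siRNA cells and 42.7, 43.9 and 40.3 CPM in control cells (1.40, 0.31 to 2.48), with 0.02 in input RNA (adjusted p = 0.813). In both the groups did not overlap, and the third TDP-43 siRNA library of RNLTR4a lay closest to the controls. MLTR13 had a value of 2.72 without the first control library, and the 6 MLTR names were 3 positive and 3 negative, between -0.61 and 2.03. The 5 tested RNLTR4 names all had positive values, from 0.19 to 1.40, and so did the 3 RLTR14 names, from 0.26 to 0.86. These name families were picked because a member had a small p, so their shared sign is a description.

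Other retroviral LTRs with a small p had lower values in TDP-43 siRNA cells. RMER3D1A_LTR stood at 135, 191 and 153 CPM in TDP-43 siRNA cells and 239, 253 and 392 CPM in control cells (log2 fold change -0.88, -1.54 to -0.23), without overlap. RLTR20C stood at 125, 134 and 173 CPM in TDP-43 siRNA cells and 320, 327 and 175 CPM in control cells (-0.92, -1.62 to -0.23), where the third libraries of both groups were nearly level. IAP elements, retrovirus-like elements that can still move in rodents, were too sparse for a narrow estimate. RNIAP1a stood at 59.0, 37.7 and 96.2 CPM in TDP-43 siRNA cells and 72.3, 87.3 and 45.1 CPM in control cells, an interval of -1.25 to 1.08.

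**Figure D4:**
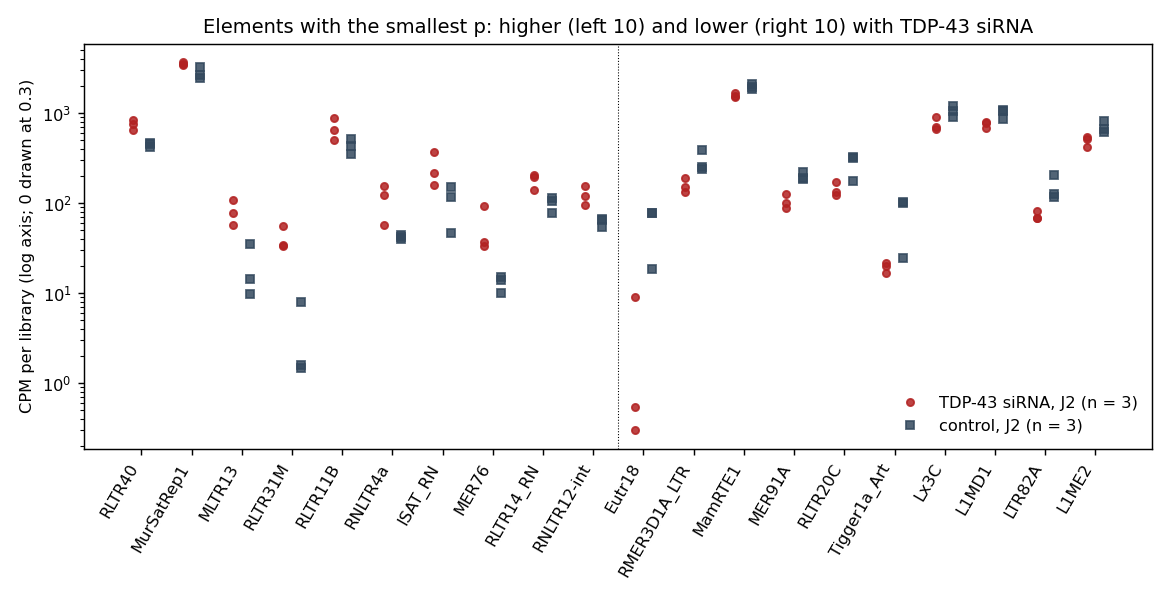
CPM in each J2 library (log axis, 0 drawn at 0.3) of the 10 elements with the smallest p among those higher in TDP-43 siRNA cells (left) and the 10 among those lower (right), TDP-43 siRNA left of control. RLTR40, with 655 to 832 CPM in TDP-43 siRNA cells and 422 to 473 CPM in control cells, has the smallest p; the elements were picked by p, none passed adjustment, and RLTR11B is the 1 whose groups overlap.

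MaLR elements, 104 names with 88 tested, had a median log2 fold change of -0.03, with 43 positive and 45 negative values. MTD, the most abundant of them, stood at 12000, 12500 and 12900 CPM in TDP-43 siRNA cells and 12300, 12300 and 11700 CPM in control cells (0.04, -0.08 to 0.16), with overlapping groups. MTE2a stood at 3810, 4060 and 3750 CPM in TDP-43 siRNA cells and 3240, 3340 and 3580 CPM in control cells (0.19 ± 0.09, 0.00 to 0.38), with no overlap, and its input value was -0.06.

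DNA transposons, 212 names with 194 tested, had a median log2 fold change of -0.05, with 87 positive and 107 negative values. At an unadjusted p under 0.05 there were 0 higher and 5 lower (2.58%) in TDP-43 siRNA cells, against 1.39% and 2.09% over all elements. The groups did not overlap for 4 higher (2.06%) and 13 lower names (6.7%), against 4.08% and 5.27% over all elements. URR1A, the most abundant of them, stood at 4720, 5040 and 5360 CPM in TDP-43 siRNA cells and 5170, 5190 and 4850 CPM in control cells (-0.01, -0.18 to 0.17). MER91A stood at 126, 102 and 88.5 CPM in TDP-43 siRNA cells and 184, 223 and 193 CPM in control cells (-0.93, -1.63 to -0.23). Tigger1a_Art stood at 21.6, 16.6 and 20.3 CPM in TDP-43 siRNA cells and 104, 24.7 and 101 CPM in control cells, where the second control library lay close to the TDP-43 siRNA values.

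Among other old elements, MamRTE1, a LINE of the RTE kind, was the most abundant with a small p. It stood at 1570, 1520 and 1660 CPM in TDP-43 siRNA cells and 1870, 1950 and 2090 CPM in control cells (log2 fold change -0.32 ± 0.11, -0.55 to -0.08), with no overlap and an input value of 0.01. L2a, the most abundant of the L2 elements, overlapped, at 10300, 9550 and 9060 CPM in TDP-43 siRNA cells and 10200, 9270 and 8770 CPM in control cells. Eutr18 stood at 0.541, 0 and 9.14 CPM in TDP-43 siRNA cells and 77.3, 18.7 and 78.2 CPM in control cells. These were 1, 0 and 32 counts against 154, 38 and 196 counts. Its log2 fold change was -4.07, with an interval of -7.01 to -1.17, and -7.49 without the third TDP-43 siRNA library, and its log2 fold change in input RNA was -1.11 (adjusted p = 0.000271).

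A few sparse names were counted in all 3 J2 libraries of 1 condition and in none of the other. UCON48 had 30, 4 and 12 counts and UCON97 had 12, 28 and 2 counts in TDP-43 siRNA cells, against 0 in each control library. The tRNA-Ile-ATT name had 0 counts in each TDP-43 siRNA library and 21, 1 and 22 counts in control cells. All 3 were chosen because their values were 0 in 1 group.

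Satellites had a share without overlap, and 2 of 18 tested names had an unadjusted p under 0.05, both higher in TDP-43 siRNA cells, against 14 of 1006 (1.39%) higher over all elements. MurSatRep1 stood at 3680, 3570 and 3400 CPM in TDP-43 siRNA cells and 2670, 3240 and 2470 CPM in control cells (log2 fold change 0.34 ± 0.11, 0.11 to 0.58). ISAT_RN stood at 219, 161 and 369 CPM in TDP-43 siRNA cells and 47.2, 119 and 153 CPM in control cells (1.23 ± 0.44, 0.27 to 2.19). Neither overlapped between the groups. In input RNA ISAT_RN had the opposite sign, with -0.41 (adjusted p = 0.0274), and the J2 change minus the input change was 1.68 (adjusted p = 0.408 in edgeR). RNSAT1c, with levels near those of MurSatRep1, stood at 3440, 3490 and 2630 CPM in TDP-43 siRNA cells and 3130, 3040 and 2180 CPM in control cells, and overlapped. Over the 18 names put with the satellites the median log2 fold change was 0.07, with 10 positive and 8 negative values. This group was set by name alone and takes in the BGLII names, whose class no source used here states.

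Abundant structural RNAs varied widely between libraries of a group. Large-subunit rRNA stood at 18800, 23900 and 1640 CPM in TDP-43 siRNA cells and 11500, 44500 and 9920 CPM in control cells (log2 fold change -0.57, -2.09 to 0.95). Without the second control library its value was 0.45. 7SLRNA, the RNA of the signal recognition particle, stood at 15700, 7890 and 2100 CPM in TDP-43 siRNA cells and 17200, 5460 and 1990 CPM in control cells (0.06, -1.37 to 1.49). In both groups the first library was highest and the third lowest, and the value was 1.19 without the first control library and -0.72 without the first TDP-43 siRNA library. 7SK, which holds the elongation factor P-TEFb inactive, stood at 742, 507 and 226 CPM in TDP-43 siRNA cells and 427, 336 and 203 CPM in control cells (0.61, -0.22 to 1.43), and its value was 0.18 without the first TDP-43 siRNA library.

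Of the 5 spliceosomal RNAs tested, U1, U2, U5 and U6 had positive values and U4 a negative one. U2 was the structural RNA with an unadjusted p under 0.05, at 334, 320 and 226 CPM in TDP-43 siRNA cells and 175, 235 and 135 CPM in control cells (0.69, 0.04 to 1.34), with overlap. U5 had a log2 fold change of 0.86 (-1.03 to 2.76) and U6 one of 0.10 (-0.41 to 0.60). U1 stood at 130, 212 and 134 CPM in TDP-43 siRNA cells and 60.2, 163 and 32.3 CPM in control cells (0.90, -0.25 to 2.05), with overlap, and its value was 1.78 without the second control library. U4 stood at 21.1, 31.2 and 24.6 CPM in TDP-43 siRNA cells and 58.2, 42.9 and 75 CPM in control cells (-1.20, -2.61 to 0.22), without overlap, while its input value was 0.30. The J2 change of U4 minus its input change was -1.47 (adjusted p = 0.327 in edgeR). Of 60 tRNA names, 12 were tested. The most abundant, tRNA-Ala-GCY_, stood at 1050, 1270 and 1040 CPM in TDP-43 siRNA cells and 1020, 949 and 978 CPM in control cells (0.19, -0.12 to 0.50). The next, tRNA-Ala-GCA, had a log2 fold change of -0.26.

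**Figure D5:**
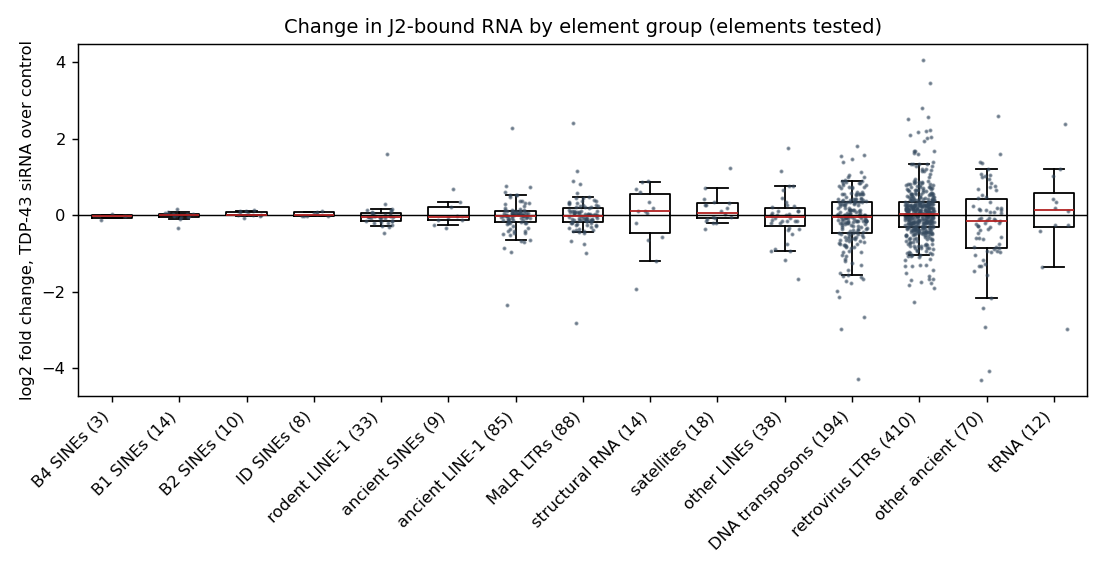
Log2 fold change in J2-bound RNA, TDP-43 siRNA over control (vertical axis), of the tested elements of each group (number tested in parentheses). Points are elements, boxes show the middle 50% and red lines the medians. Whiskers can stop short of the outermost elements. Every median lies between -0.14 and 0.15, and the boxes widen toward the sparse groups at the right.

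The knockdown comparison was then set beside the same comparison in input RNA, made on other libraries. In input RNA 164 of 1191 elements (13.8%) passed an adjusted p of 0.05 and 343 (28.8%) had an unadjusted p under 0.05, where the median SE was 0.0727 on the log2 scale against 0.464 in J2-bound RNA. Of the 164, 153 were tested in J2-bound RNA, and 100 (65.4%) had the same sign there, against 524 of all 1003 elements tested in both (52.2%). Elements whose rounded input log2 fold change was 0 counted as not sharing the sign, so the 52.2% is a lower bound. The 85 of the 153 that were higher in input had a median log2 fold change of 0.30 there and 0.15 in J2-bound RNA. The 68 that were lower in input had a median of -0.29 there and -0.16 in J2-bound RNA. In J2-bound RNA 11 of the 153 (7.19%) had an unadjusted p under 0.05, against 35 of 1003 (3.49%). Across 1003 elements, which are not independent replicates, the correlation of the changes was 0.21 (Spearman 0.13), and over the 393 elements of at least 100 CPM in both it was 0.25 (0.22).

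No element's J2 change differed from its input change past the threshold in edgeR's test. In the fit over 12 libraries, 0 of 1176 elements (0%) had an adjusted p under 0.05 in edgeR and 88 (7.48%) had an unadjusted p under 0.05, while DESeq2 called 10 of 1160 (0.862%), 6 with a positive difference and 4 with a negative one. These 10 included RLTR40 (0.60, adjusted p = 0.0228 in DESeq2), RLTR31M (2.98, adjusted p = 0.0131) and U4 (-1.52, adjusted p = 0.0228). Sparse UCON, Eutr16 and MER123 names made up 6 of the 10. Both tests used 1 estimate of the spread per element over J2 and input libraries. The biological coefficient of variation was 0.593 in J2-bound RNA and 0.0797 in input RNA, so both tests can understate the error of the J2 change. Without 1 library the edgeR count ran from 0 to 10, with 10 without the third TDP-43 siRNA J2 library, 7 without the first control J2 library and 2 without the first TDP-43 siRNA J2 library.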

How the data were processed

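The authors deposited raw counts of reads per repeat name for the 12 precipitation and input libraries and raw counts per gene for 9 poly(A) libraries; the gene table gave only Tardbp and marker levels. Per the submitters' processing notes the rn6 build was used with TopHat2, Bowtie2, Trimmomatic and DESeq2, whose versions and roles are not stated. The labels' protocols state ScriptSeq libraries of total RNA. Not given in the sources used here were the counting tool, strand use, the handling of multiply mapped reads and the source of the repeat names. A count sums all copies of a name, and without element lengths levels are not comparable per length.

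Groups came from the sample labels. The 6 J2 libraries were fitted alone with edgeR 4.0.16 in R 4.3.3 (filterByExpr, TMM factors, glmQLFit, glmQLFTest), with Benjamini-Hochberg adjustment over all tested elements and a threshold of 0.05. CPM are on TMM-scaled totals, except markers, which are on plain totals. SE and 95% intervals were derived from the unshrunk log2 fold change, its F statistic and its degrees of freedom. The J2 change minus the input change was an interaction over 12 libraries. Group shares were tested by exact permutation of the libraries, two-sided. The script was tested on simulated counts. Every pair of J2 libraries differed beyond sampling noise (chi-square divided by its degrees of freedom, 31.7 or more), and each library was kept as 1 replicate.

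Elements named were the 10 smallest p in each direction with at least 10 CPM in 1 group (no element was called), the 10 most abundant, the 2 most abundant of each group, a list of consensus elements and structural RNAs, and the 5 smallest interaction p; not all are printed, and other names were chosen after their values were seen. The element groups, this list and the comparison were chosen with earlier results of these data known. Alternatives were other scalings, filters, DESeq2 1.42.0, a shared spread, a replicate block and leaving out each library. The labels do not say that replicate numbers pair the libraries, and the fit has no block: over 1006 elements, same-numbered TDP-43 siRNA and control libraries deviated from their group means with correlations of 0.04, 0.04 and 0.02, though 0.50, 0.57 and 0.67 over the 158 elements of at least 1000 CPM.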

Additional observations from a re-analysis of the deposited data

How the results depend on the processing

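The count of called elements in J2-bound RNA was 0 under relative log, upper-quartile and total scaling, with no filter, at 10 CPM or more, in DESeq2, without tRNA, structural RNA and satellites, at 1000 CPM or more (chosen after seeing the data) and without each library. It was 2 with a spread shared by all 12 libraries, a setting that can understate the spread of the J2 libraries. The count for the J2 change minus the input change was 0 in edgeR, 10 in DESeq2 and 0 to 10 without 1 library. In edgeR it was also 0 with a replicate block (smallest adjusted p 0.595). A block of condition and replicate number, which was not planned, gave 0 as well (smallest adjusted p 0.981). The number of group shares without overlap was 2, but 0 without tRNA, structural RNA and satellites, and 2 to 4 without 1 library; the cause was not tested. It was 4 without the first control J2 library, where B1 and ID SINEs joined, and 4 without the first TDP-43 siRNA J2 library, where B2 SINEs and other LINEs joined. Leaving out a library cannot make groups overlap, so this count could not fall below 2.

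With a replicate block the J2 count was 0 (smallest adjusted p 0.164) with 59 unadjusted p under 0.05, against 35 without it, and 5 group shares moved one way in all 3 same-numbered pairs (exact sign-flip p = 0.25, the smallest possible). Over all elements the numbers did not pair the libraries by the rule used. Among 158 elements at 1000 CPM or more the same-number correlations were 0.50, 0.57 and 0.67 and every library correlated best with its own number, a hint from the data and not the design. A block at 1000 CPM or more, added after seeing the data, gave 0 calls (smallest adjusted p 0.521).

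For the 67 named elements with a fit, 1048 of 1069 values under alternatives moved by less than 1 SE, 19 by more, and 2 came past the threshold; 50 had the opposite sign. The spread between J2 libraries, above counting error, limited elements under 100 CPM, whose intervals nearly all exceeded 2-fold.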
